A study of Mus musculus with 43 samples.

Results

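The glutathione S-transferases (GSTs) described here are 10 mouse genes: the alpha class members Gsta1 and Gsta4, the mu class members Gstm1, Gstm3, Gstm4 and Gstm5, the omega class member Gsto1, the pi class member Gstp1, the kappa class member Gstk1 and the microsomal transferase Mgst1. They were chosen by symbol. All 10 were found among the 23951 genes of each bulk expression table and among the 54307 genes of each single-cell matrix.

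GSTs join the tripeptide glutathione to electrophiles such as drug metabolites, epoxides and aldehydes made when lipids are oxidised. The conjugates leave the cell through transporters and are trimmed to mercapturates, and several GSTs also reduce lipid hydroperoxides. In the small intestine GSTs are abundant in absorptive enterocytes, where they meet compounds taken in with food, and many GST genes respond to the stress-activated transcription factor NRF2.

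Intestinal organoids, which are crypt cells grown as epithelium in a gel, came from wild-type C57BL/6 mice. For bulk RNA sequencing they received no irradiation (non-IR) or 4 Gy on day 4 (IR). On day 6 they were given vehicle or 2 ng/mL TGFB1, a secreted cytokine, for 24 h. Non-IR organoids were collected on day 7 (D7), and IR organoids on D7 or on day 11 (D11), which gave 6 groups of 3 libraries. Single-cell RNA sequencing covered organoids given 4 Gy on day 4 and collected on day 8, after 6, 15 or 24 h of 1 ng/mL TGFB1 or after vehicle (0 h), with 1 library each. It also covered sorted RFP-positive, DAPI-negative crypt cells of the proximal small intestine of Ki67-RFP reporter mice (Mki67tm1.1Cle/J). Of these, 1 library came from a non-irradiated littermate and 2 from mice 56 h after 12 Gy to the whole body. Irradiated crypts were passed through a coarser strainer, so handling differed with irradiation.

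Bulk values are FPKM, fragments per kilobase of transcript scaled to library size and so a level per length, in 3 tables normalised separately, 1 for each condition (D7 non-IR, D7 IR, D11 IR). TGFB1 was therefore tested within a table, and levels set across tables carry no test. The labels do not say whether the 3 libraries of a group were separate cultures, so p-values measure the spread between these libraries, which may be technical. Between 11040 and 11361 genes reached 1 FPKM in a library. All 6 epithelial markers reached 1 FPKM in every group, while 0 of 3 endothelial markers did and summed mesenchymal markers stayed at or below 6.78 FPKM. Immune markers summed to between 24.8 and 28.4 FPKM in D7 non-IR vehicle libraries and to between 80.8 and 90.2 FPKM with TGFB1. Only 1 of the 7 markers was at 1 FPKM or more there, Cd74, with means of 26.2 and 83.2 FPKM. The immune sum reached at most 13.7 FPKM in the other groups.

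The sequences upstream of 5 members are shown because these genes cover the strongest D7 fall (Gstm3), the member closest to it in level pattern and in promoter letters (Gstm1), and the 3 members with a match to a stress-response motif. Each is the 250 bases before a RefSeq start site on GRCm38.p6, written 5′ to 3′ on the gene's strand. Capitals mark matches to TGACNNNGC, the core of the antioxidant response element that NRF2 binds, or to TGANTCA, the AP-1 site. Windows were available for 9 of the 10 members, 12 windows in all. The positions are chr3:107969175-107969424 on the minus strand for Gstm3, chr3:108017819-108018068 on the minus strand for Gstm1 (the downstream one of 2 start sites), chr3:107895604-107895853 on the plus strand for Gstm5, chr19:4037913-4038162 on the minus strand for Gstp1, and chr6:138140277-138140526 on the plus strand for Mgst1 (the first of 2 start sites).
Gstm3: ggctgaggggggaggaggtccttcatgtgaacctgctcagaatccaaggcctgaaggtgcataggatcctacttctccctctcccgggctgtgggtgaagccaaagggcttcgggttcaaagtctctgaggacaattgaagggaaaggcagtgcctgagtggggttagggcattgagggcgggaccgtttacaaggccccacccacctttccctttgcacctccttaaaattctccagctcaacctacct
Gstm1: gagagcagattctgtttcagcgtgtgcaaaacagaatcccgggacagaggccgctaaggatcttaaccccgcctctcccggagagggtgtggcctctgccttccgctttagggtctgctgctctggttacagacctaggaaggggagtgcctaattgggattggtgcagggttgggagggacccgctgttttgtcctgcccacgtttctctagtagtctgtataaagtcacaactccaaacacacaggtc
Gstm5: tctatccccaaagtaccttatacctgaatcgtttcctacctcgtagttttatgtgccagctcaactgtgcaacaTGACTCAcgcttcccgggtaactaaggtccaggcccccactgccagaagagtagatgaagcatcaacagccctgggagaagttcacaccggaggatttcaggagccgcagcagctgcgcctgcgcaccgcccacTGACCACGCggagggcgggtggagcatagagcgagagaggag
Gstp1: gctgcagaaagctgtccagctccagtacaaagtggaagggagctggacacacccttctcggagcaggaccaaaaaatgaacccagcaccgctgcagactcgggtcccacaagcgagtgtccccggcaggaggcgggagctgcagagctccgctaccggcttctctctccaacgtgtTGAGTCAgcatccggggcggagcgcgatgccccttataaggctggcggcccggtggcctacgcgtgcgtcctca
Mgst1: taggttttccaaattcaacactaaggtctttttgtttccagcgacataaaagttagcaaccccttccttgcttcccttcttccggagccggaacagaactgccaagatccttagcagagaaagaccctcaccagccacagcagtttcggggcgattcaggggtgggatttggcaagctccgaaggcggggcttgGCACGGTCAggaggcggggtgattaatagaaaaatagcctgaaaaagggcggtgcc

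Both strands were searched. The antioxidant response core occurred in the upstream part of 10.2% of all 32851 RefSeq windows, and among the members in Gstm5 (TGACCACGC, first base at −42 from the start site) and Mgst1 (GCACGGTCA, a match on the other strand, at −56). The AP-1 site, present in 6.75% of windows, occurred in Gstm5 (TGACTCA at −176) and Gstp1 (TGAGTCA at −74). The letters TATAAA, found in 12.4% of windows, stood at −30 in the printed Gstm1 window. GTCTAGAC, a SMAD-binding palindrome found in 0.167% of windows, had no match in the member windows. A match is a description of letters and not a measured binding site. The printed Gstm1 window and the Gstm3 window shared 150 of 264 aligned columns (56.8%), the most of any pair of windows from different members. The next pair, Gstm4 and Mgst1, shared 143 of 270 columns (53%). The other Gstm1 window shared 117 of 266 columns (44%) with Gstm3.

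**Figure D1:**
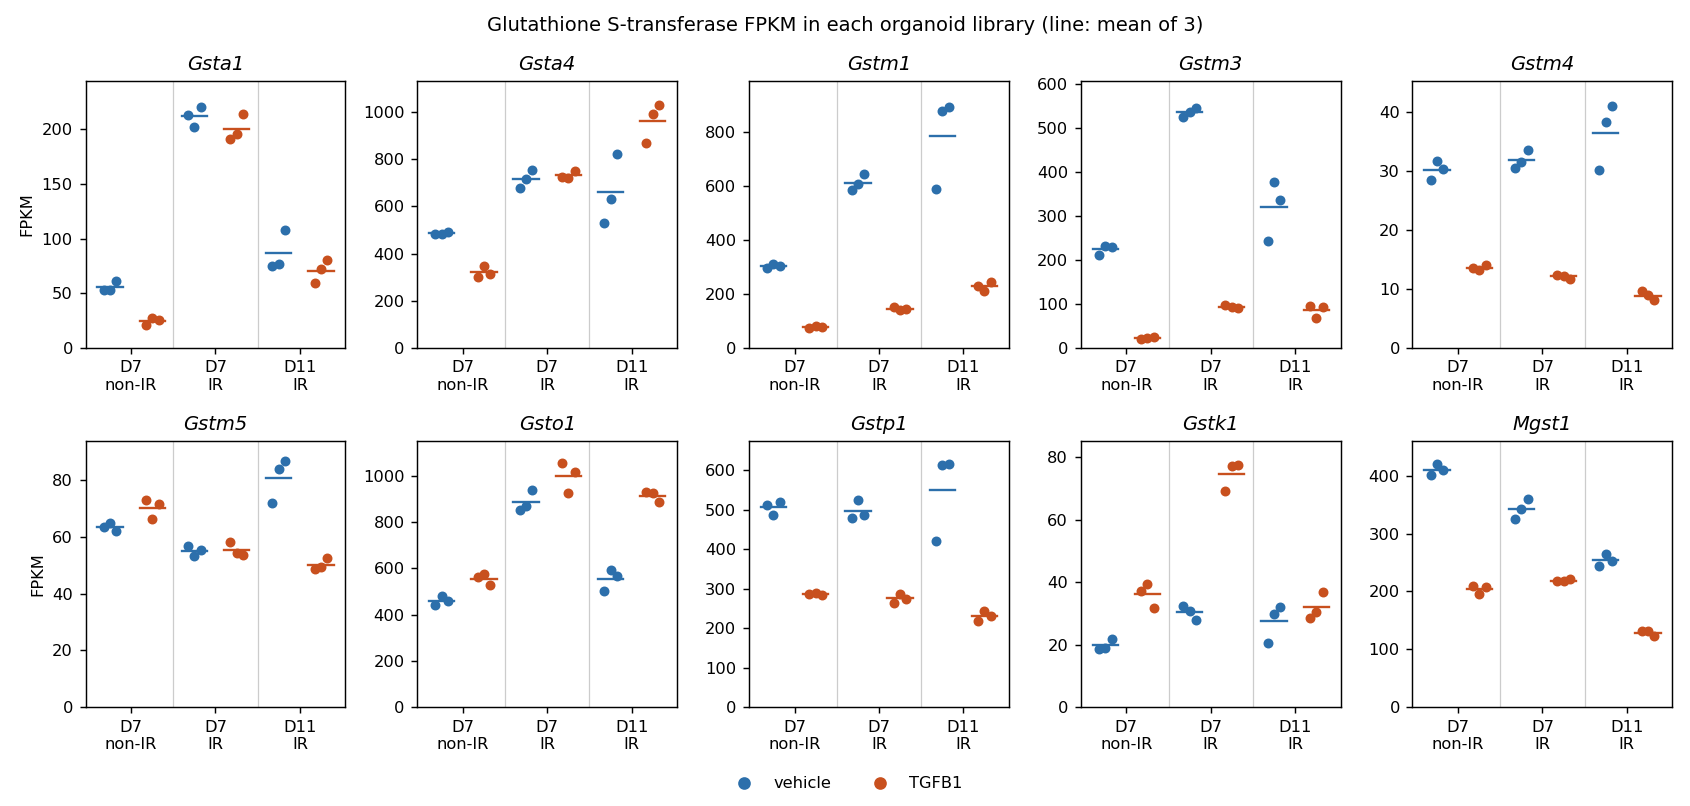
FPKM of each member in each of the 18 bulk libraries; a panel is 1 gene on its own linear axis from 0, a point is 1 library, a bar is the group mean, and groups are vehicle and TGFB1 for each of the 3 tables. Gstm3 spans 20.6 to 547 FPKM and Gstm5 changes least, 1.78-fold from lowest to highest library.

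With TGFB1 more members fell than rose in each table, and the largest falls were in the mu class. In D7 non-IR organoids 7 of 10 members fell and 3 rose, where 34.9% of all 11330 genes tested fell and 33.3% rose (limma, Benjamini-Hochberg adjusted p under 0.05). A fall of at least 2-fold was met by 5 members, against 2.92% of genes, and a rise of that size by 0, against 5.52%. Among D7 IR organoids 5 members fell, 2 rose and 3 did not pass, against 39.7% of genes lower and 35.8% higher, so the count is near the background. At 2-fold or more, 3 fell and 1 rose, against 5.39% and 7.79% of genes. In D11 IR organoids 6 fell, 2 rose and 2 did not pass, against 31.6% and 32.3% of genes, and 4 fell and 0 rose at least 2-fold, against 8.04% and 5.67%. The median log2 change over the members was −0.91, −0.36 and −0.82 in the 3 tables, beside −0.02, −0.03 and 0.01 over all genes tested. Log2 changes are on the scale of log2(FPKM + 1), and a fold given with them is the ratio of mean FPKM. In bulk samples, fewer cells of a type and less RNA per cell cannot be told apart.

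Beside these changes, the summed level of 10 enterocyte markers moved in different directions. It was 3507 to 3664 FPKM with vehicle and 1552 to 1683 FPKM with TGFB1 in D7 non-IR organoids. The D7 IR sum went the other way, from 14698 to 15679 FPKM up to 21331 to 22163 FPKM. At D11 it was 3557 to 6237 FPKM with vehicle and 2274 to 2665 FPKM with TGFB1. The summed regenerative markers were higher with TGFB1 in every table, for example 550 to 587 against 4042 to 4193 FPKM in D7 non-IR organoids. Other marker sums moved as well. Stem markers went from 915 to 1002 FPKM down to 580 to 604 FPKM in D7 non-IR organoids. In D7 IR organoids they went from 980 to 1013 down to 394 to 479 FPKM. At D11 the stem sum went from 581 to 759 up to 718 to 880 FPKM, where the groups overlapped, but its genes moved in both directions. Mean FPKM there rose for Olfm4 (238 to 450), Axin2 (38.0 to 50.2) and Ascl2 (26.9 to 30.3). It fell for Lgr5 (59.0 to 29.2), Smoc2 (98.3 to 62.9), Rgmb (44.0 to 21.1) and Slc12a2 (163 to 156). Mitosis markers went from 516 to 524 FPKM down to 263 to 269 FPKM in D7 non-IR and from 691 to 696 down to 165 to 200.4 FPKM in D7 IR organoids. S phase markers (330 to 339 against 136 to 154 FPKM) and enteroendocrine markers (655 to 715 against 1527 to 1588 FPKM) also lay apart in D7 IR organoids. At D11 the enteroendocrine sum went the other way (1054 to 1287 against 448 to 559 FPKM). Paneth markers were lower with TGFB1 in D7 non-IR organoids. They were higher in D7 IR (4700 to 5394 against 8637 to 8891 FPKM) and at D11 (3178 to 3918 against 4754 to 6145 FPKM). Goblet markers were lower in each table, for example 3272 to 3972 against 2384 to 2584 FPKM at D11. The part of these marker sets in the GST changes was not tested.

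**Figure D2:**
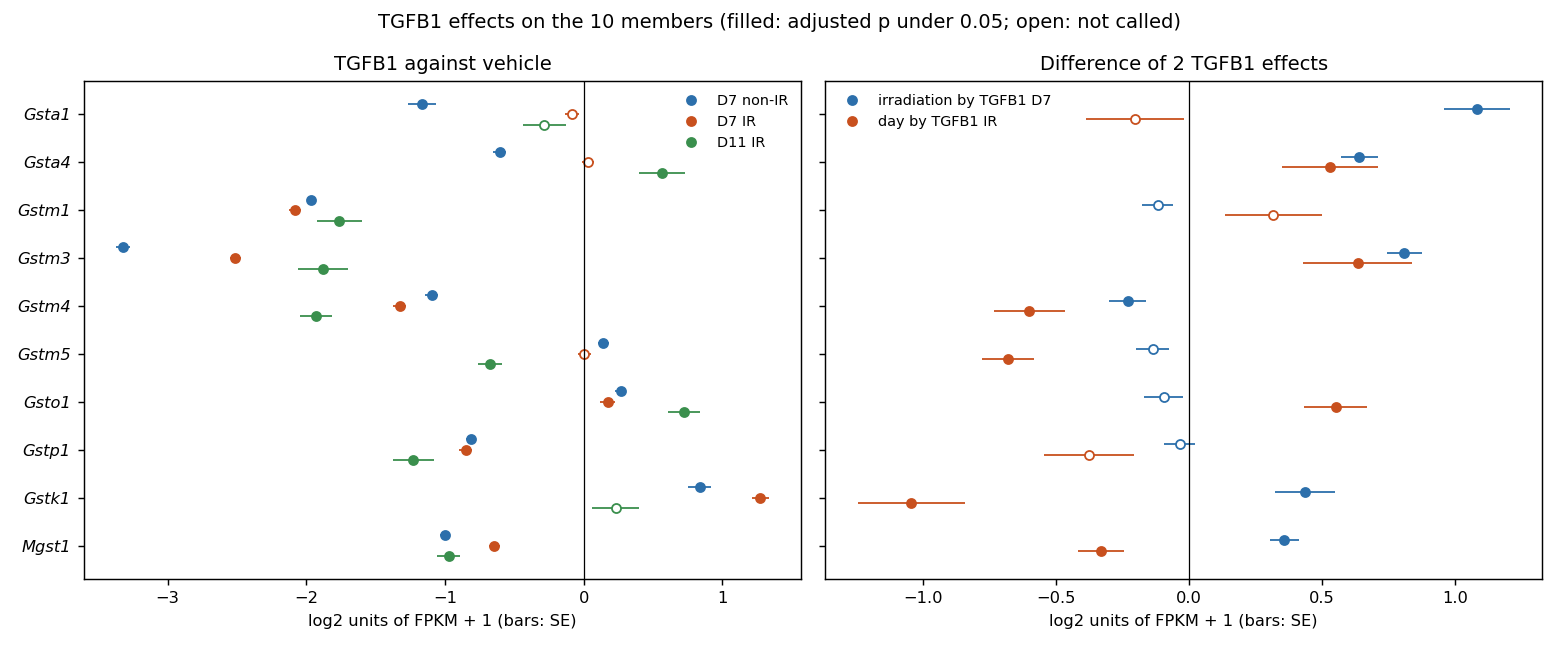
Left panel: log2 change with TGFB1 (horizontal axis, log2(FPKM + 1) scale) of each member in each table; right panel: the difference between the D7 IR and D7 non-IR changes and between the D11 IR and D7 IR changes; bars are standard errors, and filled points pass adjusted p under 0.05. Gstm3 and Gstm1 have the lowest values in both D7 tables, and the small D7 IR rise of Gsto1 turns to −0.08 under quantile normalization.

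Gstm3, a mu class enzyme that conjugates reactive electrophiles, had the largest fall of the members in both D7 tables, while at D11 the value of Gstm4 was slightly lower (−1.93 against −1.88 log2). In D7 non-IR organoids the vehicle libraries held 211, 232 and 229 FPKM and the TGFB1 libraries 20.6, 20.9 and 23.0 FPKM. With irradiation the D7 libraries held 527, 537 and 547 FPKM against 97.4, 92.4 and 90.1 FPKM. At D11 they held 244, 378 and 337 FPKM against 94.7, 68.6 and 93.6 FPKM. Every TGFB1 library lay below every vehicle library of its table. The log2 change was −3.32 (SE 0.0496, limma adjusted p = 5.11e-12) in D7 non-IR organoids, where mean FPKM was 10.4-fold lower. It was −2.51 (SE 0.04, adjusted p = 1.55e-11) in D7 IR and −1.88 (SE 0.18, adjusted p = 2.65e-05) in D11 IR organoids, both by limma.

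Gstm1, the most abundant mu class enzyme here, fell in each table. Its D7 non-IR libraries held 295, 310 and 303 FPKM with vehicle and 74.1, 79.0 and 77.7 FPKM with TGFB1. Its D7 IR libraries held 587, 608 and 645 FPKM against 149.6, 139 and 144 FPKM. At D11 the values were 587, 881 and 893 FPKM against 227, 210 and 245 FPKM. The groups did not overlap in any table. The log2 changes were −1.96 (SE 0.0349), −2.08 and −1.76 (limma adjusted p = 1.38e-11, 8.79e-11 and 1.10e-05).

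Gstm4, a less abundant mu class enzyme, fell in each table and most at D11. Vehicle and TGFB1 libraries held 28.5, 31.8 and 30.4 against 13.5, 13.2 and 14.1 FPKM in D7 non-IR organoids. They held 30.5, 31.5 and 33.6 against 12.4, 12.1 and 11.7 FPKM in D7 IR organoids, and 30.2, 38.3 and 41.1 against 9.57, 8.86 and 8.02 FPKM at D11. The groups lay apart in all 3 tables. The log2 changes were −1.10, −1.33 and −1.93 (SE 0.0486, 0.0493 and 0.12; limma adjusted p = 8.17e-09, 3.04e-09 and 6.83e-07).

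Gstm5, a mu class member better known from brain and testis than from gut, did not follow the others. It held 63.6, 65.1 and 62.3 FPKM with vehicle and 73.1, 66.3 and 71.6 FPKM with TGFB1 in D7 non-IR organoids, a rise of 0.14 on the log2 scale (limma adjusted p = 0.011). That call was lost under quantile normalization (0.08, adjusted p = 0.109) and in a single fit of the 18 libraries (adjusted p = 0.0582). The D7 IR libraries overlapped, at 56.8, 53.2 and 55.6 against 58.3, 54.5 and 53.5 FPKM, a difference of 0.01 (SE 0.0446, adjusted p = 0.912) that quantile normalization put at −0.03. At D11 it fell by 0.67 (SE 0.0867, adjusted p = 9.87e-05), from 71.9, 83.8 and 86.8 FPKM to 48.7, 49.3 and 52.5 FPKM. The D11 groups did not overlap.

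The mu genes lie side by side on chromosome 3 in the RefSeq gene order Gstm5, Gstm7, Gstm6, Gstm3, Gstm2, Gstm1, Gstm4, with no other protein-coding gene between them. At D7, with and without irradiation, 6 of the 7 fell and Gstm5, at the end of the row, did not, where 34.9% (non-IR) and 39.7% (IR) of all genes tested fell. At D11 all 7 fell, against 31.6% of genes. The other mu genes that fell were Gstm7 (−1.20, −0.73 and −1.32 log2, in the order of the tables above), Gstm6 (−1.04, −0.74 and −1.80) and Gstm2 (−0.57, −1.18 and −1.67). Summed over the 7 genes, the level was 730 ± 25.5 FPKM with vehicle and 245 ± 4.08 FPKM with TGFB1 in D7 non-IR organoids (SD, n = 3). The sums were 1441 ± 41.9 and 415 ± 14.7 FPKM in D7 IR, and 1400 ± 285 and 426 ± 25.2 FPKM in D11 IR organoids.

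**Figure D3:**
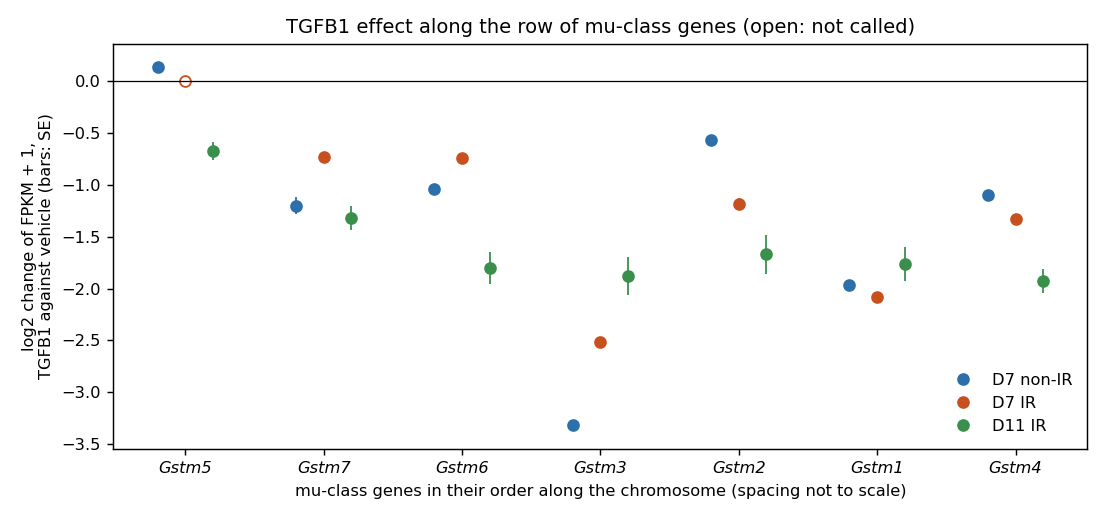
Log2 change with TGFB1 (vertical axis) of the 7 mu class genes in their order on chromosome 3 (horizontal axis, not to scale), for each table, with standard errors. Gstm3 has the lowest D7 non-IR value, −3.32, and Gstm5 at one end is at 0.14 and 0.01 in the D7 tables.

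Among the alpha class, Gsta1, which conjugates electrophiles and reduces lipid hydroperoxides, fell in non-irradiated organoids. It held 52.7, 53.1 and 61.0 FPKM with vehicle and 20.6, 27.2 and 25.3 FPKM with TGFB1, with no overlap (−1.16 log2, SE 0.10, limma adjusted p = 1.99e-05). Its D7 IR libraries stood higher and overlapped, at 213, 202 and 221 against 191, 196 and 214 FPKM (−0.08, adjusted p = 0.16). At D11 they overlapped too, at 75.2, 76.7 and 108 against 59.2, 71.7 and 80.4 FPKM (−0.28, SE 0.16, adjusted p = 0.141), a difference that passed with a replicate block (adjusted p = 0.0243). The D7 IR difference passed under quantile normalization (−0.16, adjusted p = 0.0131) and without TGFB1 replicate 3 (−0.13, adjusted p = 0.0192). Gsta1 has a near-identical neighbour, Gsta2, with which reads can be shared, so its level is uncertain. Gsta2 itself fell in the 3 tables (−1.32, −0.32 and −0.84 log2).

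Gsta4, the alpha class enzyme that conjugates the lipid aldehyde 4-hydroxynonenal, changed direction between conditions. In D7 non-IR organoids it fell from 481, 484 and 493 FPKM to 298, 346 and 315 FPKM (−0.61 log2, SE 0.0474, limma adjusted p = 9.64e-07). Its D7 IR libraries overlapped, at 679, 717 and 754 against 727, 720 and 752 FPKM (0.03, adjusted p = 0.496), and quantile normalization gave a fall of −0.19 (adjusted p = 0.00161). Without vehicle replicate 1 that D7 IR difference was −0.0044. At D11 it rose from 530, 633 and 822 FPKM to 868, 994 and 1033 FPKM (0.56, SE 0.16, adjusted p = 0.0133), with no overlap.

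Gsto1, an omega class enzyme that reduces rather than conjugates, acting on dehydroascorbate and mixed disulfides, was higher with TGFB1. In D7 non-IR organoids it rose from 441, 480 and 460.5 FPKM to 561, 574 and 529 FPKM (0.27 log2, SE 0.0402, limma adjusted p = 0.000146). In D7 IR organoids the groups overlapped, at 851, 868 and 940 against 1056, 927 and 1017 FPKM. That difference of 0.17 (adjusted p = 0.0155) was lost without vehicle replicate 1, vehicle replicate 2 or TGFB1 replicate 1 (adjusted p = 0.0588, 0.0585 and 0.0644) and was −0.08 under quantile normalization (adjusted p = 0.111). At D11 it rose from 502, 592 and 566 FPKM to 928, 924 and 886 FPKM (0.72, SE 0.11, adjusted p = 0.000339).

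Gstp1, the pi class enzyme, which also binds stress kinases, fell in every table with no overlap. The D7 non-IR libraries went from 512, 487 and 519.5 FPKM to 288, 289 and 285 FPKM (−0.82 log2, limma adjusted p = 2.83e-09). The D7 IR libraries went from 480, 526 and 487 FPKM to 264, 288 and 275 FPKM (−0.85, adjusted p = 4.46e-08), and the D11 libraries from 422, 612 and 617 FPKM to 218, 244 and 232 FPKM (−1.23, adjusted p = 7.14e-05). Near copies Gstp2 and Gstp3 lie beside it on chromosome 19, so reads may be divided between them.

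Gstk1, the kappa class enzyme of mitochondria and peroxisomes, was the member that rose most in both D7 tables. In D7 non-IR organoids it went from 18.6, 18.8 and 21.8 FPKM to 37.1, 39.3 and 31.9 FPKM (0.84 log2, SE 0.0817, limma adjusted p = 1.24e-05). In D7 IR organoids it went from 32.3, 30.7 and 28.0 FPKM to 69.2, 77.0 and 77.5 FPKM (1.27, SE 0.0605, adjusted p = 1.93e-08). At D11 the groups overlapped, at 20.4, 29.9 and 32.0 against 28.5, 30.5 and 36.9 FPKM (0.23, adjusted p = 0.263). It is the only member called at least 2-fold higher in any table.

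Mgst1, a membrane-bound enzyme of the endoplasmic reticulum and outer mitochondrial membrane that also reduces lipid hydroperoxides, fell in each table without overlap. It went from 401, 420 and 410.4 FPKM to 209, 196 and 208 FPKM in D7 non-IR organoids (mean FPKM 2.01-fold lower, limma adjusted p = 1.06e-09). It went from 325, 343 and 360 FPKM to 218, 217.5 and 221 FPKM in D7 IR organoids (−0.64, adjusted p = 1.65e-07) and from 245, 265 and 252 FPKM to 131, 132 and 123 FPKM at D11 (−0.97, adjusted p = 7.02e-06).

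The TGFB1 change differed between irradiated and non-irradiated D7 organoids for 6 members, tested as the D7 IR change minus the D7 non-IR change over 12 libraries. Of the 10, 5 had a higher difference and 1 a lower one, where 25.3% and 27.8% of all genes did (53.1% in either direction). At 2-fold or more 1 was higher and 0 lower, against 2.53% and 1.85%. The difference was 1.08 log2 for Gsta1 (SE 0.12, limma adjusted p = 1.28e-05), 0.81 for Gstm3 (adjusted p = 2.00e-07) and 0.64 for Gsta4 (adjusted p = 3.10e-06), whose falls were smaller in irradiated organoids or did not pass there. It was 0.44 for Gstk1, whose rise was larger (adjusted p = 0.00525, and 0.081 in the single fit of 18 libraries), and 0.36 for Mgst1 (adjusted p = 7.28e-05). Gstm4 fell more, by −0.23 (adjusted p = 0.0116), a call lost under quantile normalization (adjusted p = 0.108) and in the fit of 18 libraries (adjusted p = 0.134). The difference did not pass for Gstm1 (−0.12, adjusted p = 0.102), Gstm5 (−0.14), Gsto1 (−0.10) or Gstp1 (−0.03). Quantile normalization gave Gsto1 −0.32 (adjusted p = 0.000487). Gstm1 passed without D7 IR vehicle replicate 1 (−0.15, adjusted p = 0.0471), and Gstm5 without D7 IR TGFB1 replicate 1 (−0.17, adjusted p = 0.0306) or D7 non-IR TGFB1 replicate 2 (−0.18, adjusted p = 0.0238).

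Between D7 and D11 of irradiated organoids, tested in the same way over 12 libraries, 3 members had a higher and 4 a lower TGFB1 change at D11, where 31.5% and 33% of genes did (64.5% in either direction), so both counts are close to the background. At 2-fold or more 0 were higher and 1 lower, against 6.83% and 9.58%. The largest was Gstk1 (−1.04 log2, SE 0.20, limma adjusted p = 0.000679), which rose at D7 and did not pass at D11. The D11 change was lower for Gstm5 (−0.68, adjusted p = 3.41e-05), Gstm4 (−0.60, adjusted p = 0.0014) and Mgst1 (−0.33, adjusted p = 0.00437, and 0.0945 under quantile normalization). It was higher for Gstm3 (0.63, adjusted p = 0.0155), Gsto1 (0.55, adjusted p = 0.00115) and Gsta4 (0.53, adjusted p = 0.0193). Gstp1 missed the threshold (−0.38, adjusted p = 0.0647), but passed without D11 vehicle replicate 1 (−0.56, adjusted p = 8.22e-05), with median-ratio scaling (adjusted p = 0.0426), in the single fit of 18 libraries (0.0278) and with a replicate block (0.029). Gstm1 did not pass either, at 0.32 (adjusted p = 0.142), and was 0.68 under quantile normalization (adjusted p = 0.000391). The D7 IR libraries are shared by both sets of differences.

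Set across tables, with no test since each was normalised alone, the D7 vehicle levels of 6 members were higher in IR than in non-IR organoids with no overlap, 2 were lower and 2 overlapped. Without overlap, 40.7% of all genes were higher and 44.3% lower. Gsta1 was 3.81-fold higher, Gstm3 2.40-fold, Gstm1 2.03-fold, Gsto1 1.93-fold, Gstk1 1.54-fold and Gsta4 1.47-fold. With TGFB1, 7 were higher and 2 lower in D7 IR organoids, against 38.4% and 45.7% of genes, led by Gsta1 (8.21-fold) and Gstm3 (4.34-fold). From D7 IR to D11 IR vehicle, 1 was higher (Gstm5, 1.47-fold) and 4 lower (Gsta1, Gstm3, Gsto1 and Mgst1), against 33.7% and 33.1% of genes. From D7 IR to D11 IR TGFB1, 2 were higher and 6 lower, against 38.7% and 38.8% of genes.

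By mean FPKM, Gstm3 was highest in D7 IR vehicle (537 ± 10.1), then D11 IR vehicle (319 ± 68.7) and D7 non-IR vehicle (224 ± 11.0), with no overlap between neighbours (SD, n = 3). The TGFB1 groups followed, with D7 IR and D11 IR overlapping and D7 non-IR lowest. Gsta1 was highest in D7 IR vehicle and D7 IR TGFB1, which overlapped, and lowest in D7 non-IR TGFB1. Gsto1 was highest in D7 IR TGFB1, D11 IR TGFB1 and D7 IR vehicle, whose neighbours overlapped. For Mgst1 the order was D7 non-IR, D7 IR and D11 IR vehicle and then the TGFB1 groups, and no neighbours overlapped. For Gstm4 and Gstp1 every vehicle group lay above every TGFB1 group, and neighbouring vehicle groups overlapped.

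Over the 18 libraries, the genes whose log2 level followed Gstm3 most closely among 10823 genes were the carboxylesterase Ces1f (Pearson r = 0.989), Nomo1 (0.983), the carboxylesterase Ces1e (0.975), Creg1 (0.972) and Tomm40l (0.966). Gstm1 ranked 14 (0.938). The closest to Gsto1 were Gtf3c6 (0.984), Dda1 (0.982), 2310036O22Rik (0.975), Stard3 (0.972) and Anapc16 (0.971). The points share 3 tables and their separate normalisation, so these values are a description.

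The files hold 14 further GST genes, of which Gsto2 and Gstt4 were below the filter of a mean of 1 FPKM. Of the 12 tested, 10 fell and 1 rose in each condition, beside falls of 34.9%, 39.7% and 31.6% and rises of 33.3%, 35.8% and 32.3% of all genes. The median log2 change was −0.60, −0.62 and −1.29, beside −0.02, −0.03 and 0.01 over all genes. Gstt1, a theta class enzyme that metabolises small halogenated compounds, went from 177.5 to 31.1 mean FPKM at D11 (−2.47 log2, limma adjusted p = 8.70e-08), against −0.56 and −0.18 in the D7 tables. The theta genes Gstt2 (−0.18, −0.67 and −1.48) and Gstt3 (−0.45, −0.61 and −0.37) fell too, the D7 non-IR call of Gstt2 being lost in the single fit of 18 libraries (adjusted p = 0.0984). Gstp2 was −0.95 and −2.47 in D7 non-IR and D11 organoids and did not pass in D7 IR (−0.28). Gsta3 fell at D7 (−0.64 and −1.07) and did not pass at D11 (0.08). Mgst2 fell in D7 IR organoids (−0.30), rose at D11 (0.35) and did not pass in D7 non-IR (−0.14). Gstz1, which acts in tyrosine breakdown, fell by 0.64, 0.64 and 1.26. Mgst3 rose at D7 (0.17 and 0.37) and was −0.41 at D11. The first call was lost in the single fit of 18 libraries (adjusted p = 0.0896). The D11 call was lost under quantile normalization (−0.0457, adjusted p = 0.599) and without any 1 of 5 of the 6 libraries (adjusted p = 0.0568 to 0.0896), the exception being vehicle replicate 1.

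Genes around the transferases were called in both directions. Of 41 listed genes of glutathione synthesis, peroxide reduction, NRF2 response and conjugate export, 14 rose and 18 fell of 38 tested in D7 non-IR organoids. In D7 IR organoids 15 rose and 17 fell of 37, and at D11 18 rose and 14 fell of 39. Over all genes 33.3%, 35.8% and 32.3% rose and 34.9%, 39.7% and 31.6% fell in the 3 tables. Among 11 synthesis and recycling genes, Gsr, which regenerates glutathione, fell at D7 (−1.03 non-IR and −1.24 IR). At D11 Gclc, the catalytic subunit of the rate-limiting step of glutathione synthesis, rose from 39.5, 40.2 and 35.3 FPKM to 106, 111 and 106 FPKM (1.47 log2, limma adjusted p = 3.10e-07). Slc7a11, which imports cystine, rose there too (1.10), while the glutaredoxin Glrx (−1.13) and Oplah, which recycles 5-oxoproline (−1.03), fell. The TGFB1 change of Ggct was lower in irradiated than in non-irradiated D7 organoids (a difference of −1.31). In irradiated organoids the TGFB1 change of Chac2 was higher at D11 than at D7 (a difference of 1.03).

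The peroxidase list held 6 glutathione peroxidases, Prdx6 and Prdx1, which draws on thioredoxin instead. Of those tested 6 of 7 rose and 1 fell in D7 non-IR organoids, 3 of 6 rose and 1 fell in D7 IR, and 5 of 7 rose and 2 fell at D11. For these and the group counts below, 33.3%, 35.8% and 32.3% of all genes rose and 34.9%, 39.7% and 31.6% fell. Past 2-fold were Gpx7 in D7 non-IR (1.33), Gpx3 in D7 IR (1.07) and Gpx8 at D11 (1.37), and the change of Gpx1 differed between the days of irradiated organoids (−1.51). Mean levels with vehicle and TGFB1 were low for Gpx7 (0.392 and 2.52 FPKM) and Gpx8 (0.227 and 2.19 FPKM). Their log2 values therefore depend strongly on the added 1 FPKM. Gpx2, the gut epithelial form, rose at D11 from 286, 378 and 342 FPKM to 1803, 1755 and 2069 FPKM (2.49 log2, limma adjusted p = 4.46e-07), while in D7 IR organoids it fell by 0.16, a call lost in the single fit of 18 libraries (adjusted p = 0.0906). In the NRF2 group 1 of 9 tested rose and 6 fell in D7 non-IR, 3 of 9 rose and 5 fell in D7 IR, and 5 of 10 rose and 2 fell at D11. Hmox1, which degrades haem, rose in each table (1.65, 1.78 and 1.60). The epoxide hydrolase Ephx1 (−1.40, −1.55 and −1.52) and the carbonyl reductase Cbr3 (−1.52, −1.26 and −0.71) fell in each. The D11 call of Cbr3 was lost without vehicle or TGFB1 replicate 3 (limma adjusted p = 0.0678 and 0.0634). The aldehyde dehydrogenase Aldh3a1 rose at D11 (1.56), also at low mean levels (0.0186 and 2.00 FPKM), and was below the filter at D7. Nfe2l2, which encodes NRF2, rose at D11 (0.76) and did not pass at D7 (−0.01 and −0.08), where quantile normalization called it lower (−0.0984 and −0.18, adjusted p = 0.018 and 0.000756). Nqo1, a standard NRF2 target, fell at D7 (−0.60 and −0.50) and was 0.01 at D11. Of 11 tested export and mercapturate genes 7, 8 and 8 fell and 4, 3 and 2 rose in the same order, with Nat8, which acetylates the conjugate, at −2.18, −1.20 and −1.64. The aminopeptidase Anpep (−1.45, −1.39 and −1.06), the dipeptidase Dpep1 (−1.55, −0.25 and −1.43), the exporter Abcc2 (−1.11, −0.32 and −1.06) and the aminoacylase Acy3 (−0.73, −0.27 and −1.62) fell in each table, the D7 IR call of Dpep1 being lost in the single fit of 18 libraries (adjusted p = 0.177). Ggt1, which starts the trimming of conjugates, fell at D7 (−1.49 and −0.55) and did not pass at D11 (−0.70), where it passed in that single fit (adjusted p = 0.00387), with a replicate block (0.0132) and without vehicle replicate 1 (−0.93, adjusted p = 0.0133) or 3 (−0.40, adjusted p = 0.013).

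In single cells, expected molecule counts were summed over the kept cells of a library and scaled to a fixed library total as CPM. There is 1 library per time, so no test was made. Intervals of CPM are exact Poisson 95% intervals. Intervals of ratios are exact binomial 95% intervals on the counts of both libraries, rounded to whole numbers. Both kinds cover counting error only. Kept cells numbered 2932, 4283, 2890 and 2218 at 0, 6, 15 and 24 h, with median counts per cell of 6709 to 10441. No library pair shared more than 1 barcode.

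**Figure D4:**
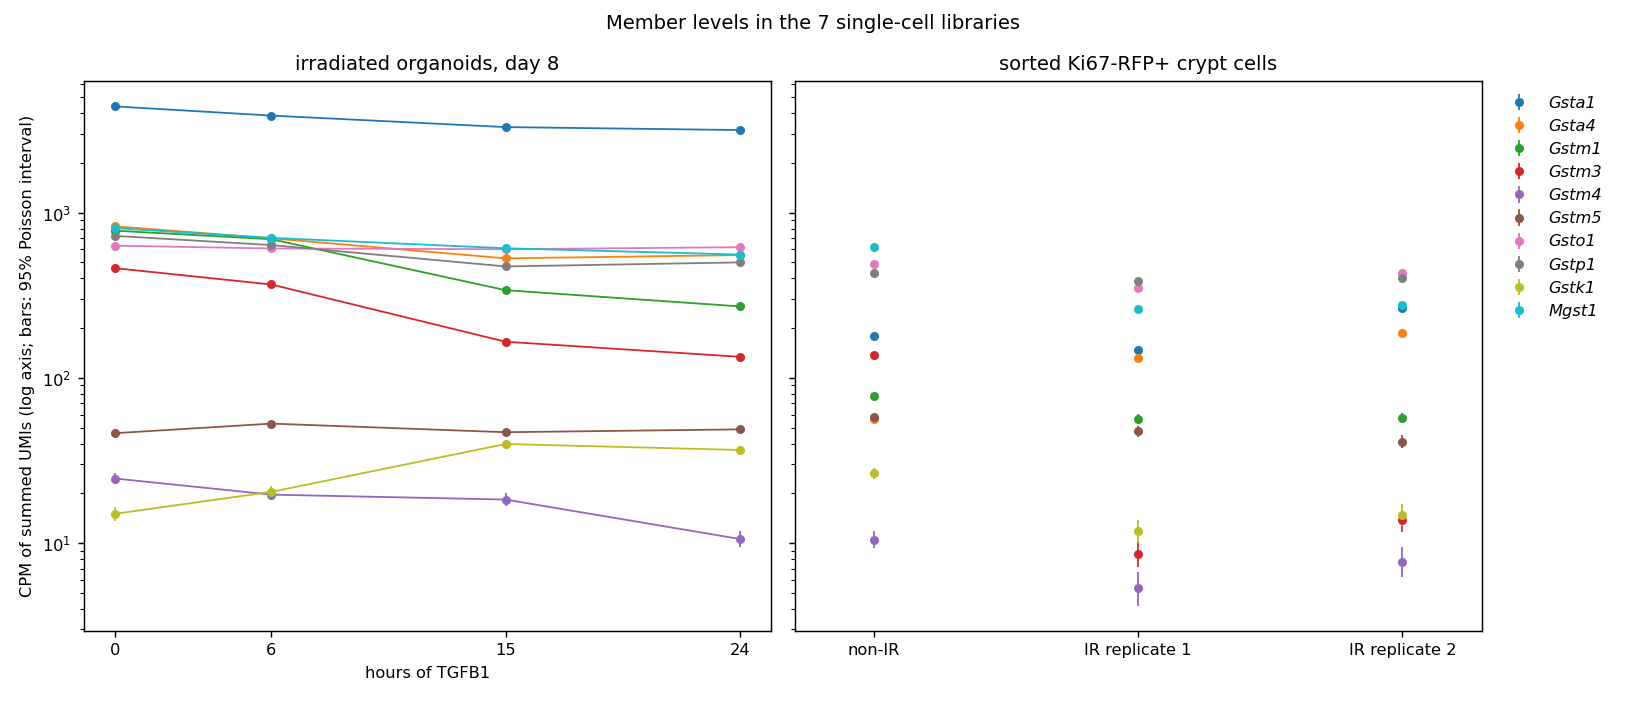
CPM of each member (log axis) in the 4 organoid libraries by hours of TGFB1 and in the 3 Ki67-RFP libraries; bars are Poisson 95% intervals for counting error and each point is 1 library. Gstm3 goes from 462 to 134 CPM in the organoids and from 137 to 8.62 and 13.7 CPM in the sorted cells.

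Gstm3 held 462, 368, 166 and 134 CPM at 0, 6, 15 and 24 h, and Gstm1 779, 692, 340 and 271 CPM. Their ratios of 24 h to 0 h were 0.291 (0.28 to 0.301) and 0.348 (0.339 to 0.357), a 3.44-fold and 2.87-fold lower level. Most of the difference stood between the 6 h and 15 h libraries. Gstm4 was at 24.6, 19.6, 18.3 and 10.6 CPM, a ratio of 0.431 (0.376 to 0.492). Gstk1 was at 15.0, 20.4, 39.8 and 36.6 CPM, a ratio of 2.44 (2.17 to 2.73), so Gstk1 was higher where Gstm3, Gstm1 and Gstm4 were lower. Gstm5 (ratio 1.05, 0.978 to 1.14) and Gsto1 (0.979, 0.959 to 1) stood near 1, and Gsta4, Gstp1, Mgst1 and Gsta1 lay between 0.67 and 0.719. By a size rule of 1.5-fold, 0 members were past it at 6 h, 1 higher and 4 lower at 15 h, and 1 higher and 3 lower at 24 h. Over the 8618 to 8883 genes with at least 10 CPM in 1 of the 2 libraries compared, 7.48% and 4.9% were past it at 15 h and 11.9% and 6.48% at 24 h (3.47% and 1.45% at 6 h).

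Values of Gsta1 and Gstp1 are uncertain, since 64.9 to 88.9% and 29.5 to 52.1% of their counts came from reads divided among genes. Counting whole entries only, Gsta1 was 540, 797, 740 and 404 CPM, with 6 h and 15 h above 0 h (ratios 1.47 and 1.37) and 24 h below it (0.747). Gstp1 was then 382, 374, 280 and 299.7 CPM, a ratio of 0.784 at 24 h. For the other members the divided share was at most 4.1%.

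The cells were clustered with all GST genes left out, and clusters were named from marker genes. In the 0 h library 9 of 10 members were at least 1.5-fold higher in enterocyte-like than in stem-like cells and 1 was lower, where 22.6% and 42.2% of genes with at least 10 CPM in either were. The counts were the same over all 4 libraries (21.7% and 42.9% of genes), which hold the classes in different shares. At 0 h Gsta1 stood at 9698 against 170.3 CPM, Gsta4 at 1458 against 117 CPM and Gstm3 at 904 against 66.0 CPM (13.7-fold). Gstm5 was the exception, at 33.0 against 73.6 CPM. Enterocyte-like cells were 39.8%, 38.6%, 38.7% and 26.1% of the libraries at 0, 6, 15 and 24 h, and regenerative-like cells 3.85%, 3.99%, 7.02% and 11.9%. Stem-like cells were 7.16% and 17.4% at 0 and 24 h, S phase-like cells 15.1% and 0.406%, and cells in unnamed clusters 14.1% and 34.4%.

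Gstm3 was lower at 24 h than at 0 h in each of the 8 clusters that held at least 20 cells at both times. In mitosis-like cluster 0 it went from 171 (162 to 181) to 11.6 (8.61 to 15.2) CPM. In enterocyte-like cluster 1, which held most such cells at 0 h, it went from 922 (900 to 944) to 220 (206 to 235) CPM. In enterocyte-like cluster 2, which held most at 24 h, it went from 848 to 444 CPM. Stem-like cells went from 66.0 to 12.0 CPM and regenerative-like cells from 382 to 31.2 CPM. Droplets also hold free RNA, so counts outside enterocyte-like cells can include RNA released by enterocytes. Fabp1, an abundant enterocyte gene, was at 305 and 252 CPM in stem-like cells at 0 and 24 h, so Gstm3 per 100 Fabp1 counts was 21.6 and 4.77 there. The same measure was 4.56 and 1.2 in enterocyte-like cluster 1, but 4.02 and 3.16 in enterocyte-like cluster 2. In regenerative-like cells Fabp1 was itself lower at 24 h (5936 and 1258 CPM), with Gstm3 at 6.44 and 2.48 per 100 Fabp1 counts. The share of free RNA was not tested. Gstm1 was lower in the same clusters, for example from 749 to 107 CPM in regenerative-like cells. Gstk1 differed by cluster: it went from 20.4 (17.2 to 24.0) to 63.8 (56.2 to 72.2) CPM in cluster 1 and from 30.6 (21.2 to 42.7) to 34.2 (29.2 to 39.8) CPM in regenerative-like cells. Gstm5 was 73.6 and 90.9 CPM in stem-like cells.

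**Figure D5:**
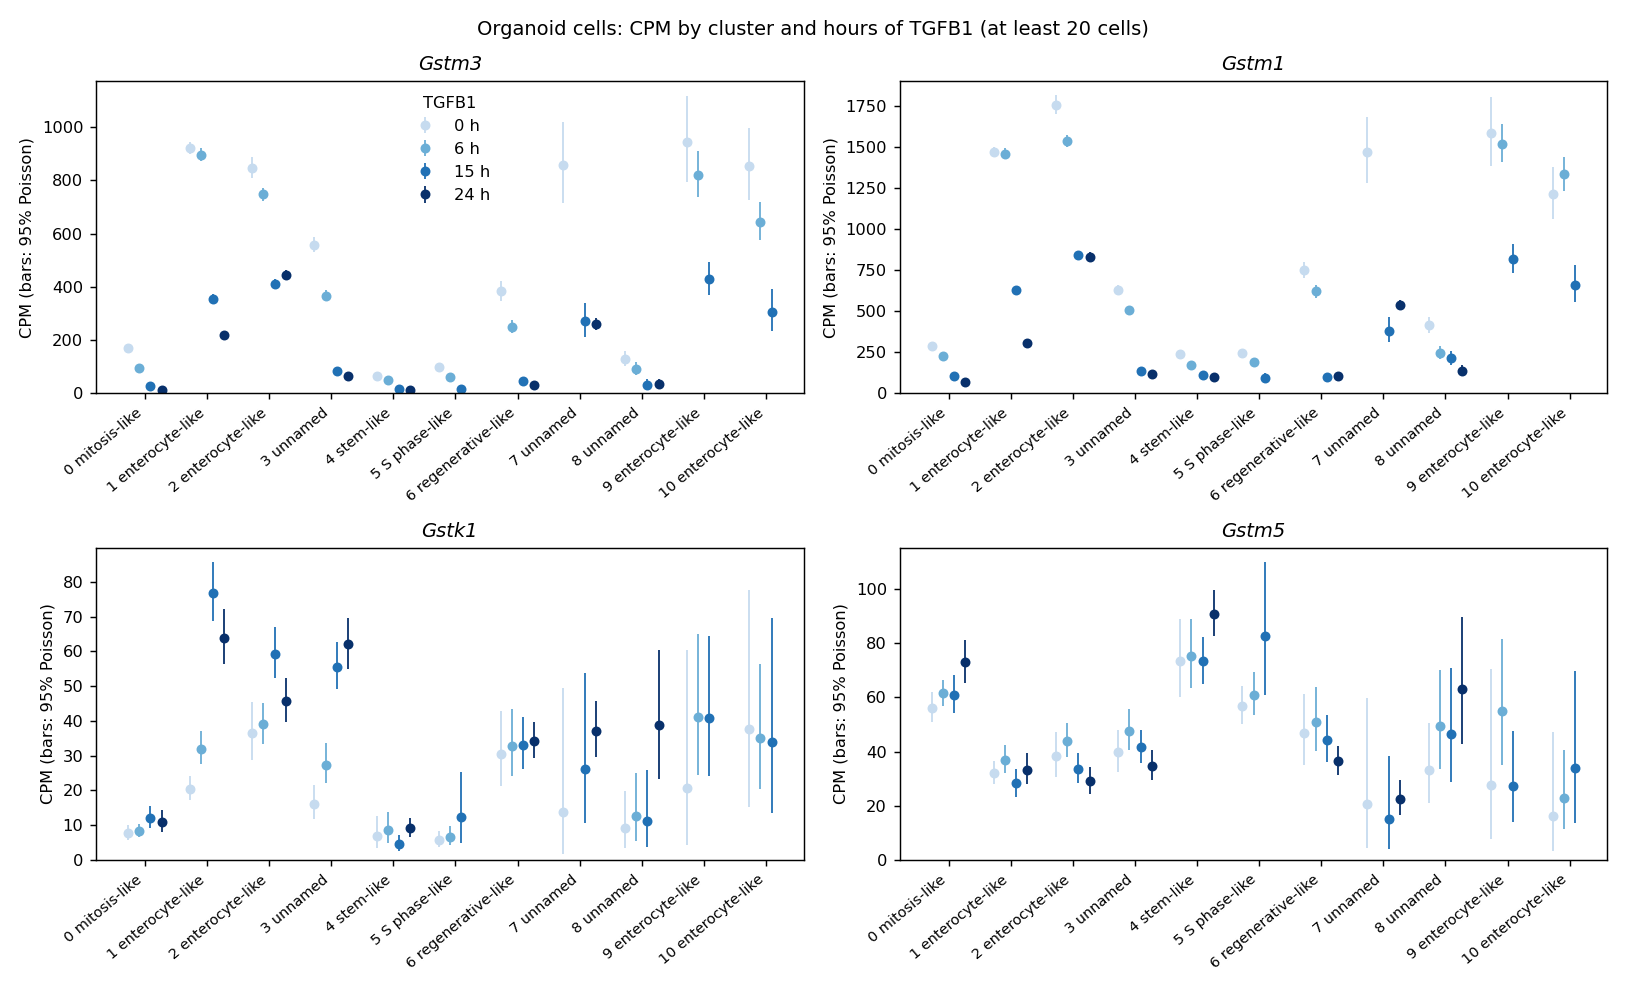
CPM (linear axis from 0) of Gstm3, Gstm1, Gstk1 and Gstm5 in each organoid cluster (horizontal axis, number and class), 1 point per library shaded by hours of TGFB1, with Poisson 95% intervals for counting error. Gstm3 lies lower at 24 h than at 0 h wherever both are drawn, and Gstm5 reaches 90.9 CPM in the stem-like cluster.

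In the sorted Ki67-RFP cells, Mki67 itself, the gene that marks the gate, was 180 CPM without irradiation and 158 and 138 CPM with it. Kept cells numbered 1846, 719 and 699. Gstm3 was 137 (132 to 141) CPM without irradiation and 8.62 (7.13 to 10.3) and 13.7 (11.7 to 15.9) CPM in the irradiated libraries, 15.9-fold and 9.98-fold lower. Mgst1 was 623 CPM against 262 and 275 CPM, and Gstk1 26.4 CPM against 11.8 and 14.8 CPM. Gsta4 went the other way, from 56.1 (53.2 to 59.1) CPM to 132 and 187 CPM. These 4 were past 1.5-fold in both irradiated libraries, 1 higher and 3 lower, where 19.8% and 11.1% of genes with at least 10 CPM in 1 of the 3 libraries were. Gsta1 stood on opposite sides of the control in the irradiated libraries, at 147 and 266 against 179 CPM.

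Cell types differed between these libraries. Stem-like cells were 750 of the control and 0 of each irradiated library (0 cells allow a share of up to 0.417% and 0.429%), regenerative-like cells were 0 (up to 0.163%), 251 and 332, and enterocyte-like cells were 23.3%, 1.25% and 5.01%. Cell class and irradiation therefore cannot be told apart there. Goblet-like cells, present in all 3 (69, 38 and 20 cells), held 47.3 (33.3 to 65.2) CPM of Gstm3 without irradiation and 15.8 (7.57 to 29.1) and 8.29 (1.71 to 24.2) CPM with it. Mgst1 in them was 261 CPM against 67.9 and 22.1 CPM, while Gstm1 was 70.4 CPM against 118.5 and 102 CPM. As in the organoids, counts in goblet-like cells can include free RNA of other cells, and its share was not tested. In the organoid bulk libraries Gstm3 was higher with irradiation, at another dose, time and cell mix, so the systems are only set side by side.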

How the data were processed

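Bulk RNA values were deposited by the authors as FPKM for 23951 genes in 3 tables of 6 libraries. The submitters' processing notes name TopHat2 2.1.0, Cuffnorm 2.2.1 and Cuffdiff 2.2.1, and for single cells STARsolo (STAR 2.7.10a) and Salmon 1.4, with the builds mm9, GRCm39 and mm39; the build behind each assay is not given in the sources at hand. FPKM keep no read depth here, so precision rests on the 3 libraries per group. The deposited single-cell values are expected counts, which hold fractions where a read was divided among genes. They were summed unrounded and scaled to library size (CPM), with no count model. Only the intervals of ratios used rounded sums.

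FPKM were tested as log2(FPKM + 1) with limma 3.58.1 (R 4.3.3; trend, robust), two-sided, over genes whose mean over the fitted libraries reached 1 FPKM, with Benjamini-Hochberg adjustment over those genes and a call at adjusted p under 0.05. The scripts were tested on simulated data. Alternatives were a pseudocount of 0.1, no filter, quantile and median-ratio scaling, all 18 libraries in one fit, a non-robust fit, a 2-fold minimum, a replicate block and leaving out each library. Cells were kept from 500 UMIs and 250 genes upwards if mitochondrial genes took no more than 20% of counts (scanpy 1.11.5, leidenalg 0.10.2), clustered on 2000 variable genes, 30 components and 15 neighbours at resolution 0.6; no doublet caller was run. Kept libraries held 12344800 to 32430900 UMIs.

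The text names all 10 members, the other GST genes, pathway genes called at least 2-fold, with Nfe2l2, Nqo1 and single-cell examples added after their values were seen, and the 5 genes most like the member with the largest summed change and like Gsto1. The members and lists were chosen with earlier results of these data known. The 18 ATAC libraries were not analysed here. Promoter letters and gene order come from RefSeq (GRCm38.p6), from which no coordinate was joined to the files.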

Additional observations from a re-analysis of the deposited data

Results flagged for a closer look

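The following 13 results differed between groups by a test of the difference itself, with limma over 12 libraries. Between irradiated and non-irradiated D7 organoids the TGFB1 change differed for Gsta1 (1.08 log2), Gstm3 (0.81), Gsta4 (0.64), Gstk1 (0.44), Mgst1 (0.36) and Gstm4 (−0.23). Between D11 and D7 of irradiated organoids it differed for Gstm3 (0.63), Gsto1 (0.55), Gsta4 (0.53), Mgst1 (−0.33), Gstm4 (−0.60), Gstm5 (−0.68) and Gstk1 (−1.04). Over all genes tested 53.1% and 64.5% passed the same tests, so passing alone does not set these members apart. Groups of 3 libraries were not tested for a stray library.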

How the results depend on the processing

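With a 2-fold minimum the calls over all genes were 956 without irradiation, 1484 in D7 IR and 1574 in D11 IR organoids, and 500 and 1880 for the differences by irradiation and by day. Members called higher were then 0, 1, 0, 1 and 0, and members called lower were 3 in D7 IR, 0 by irradiation and 1 by day. Under quantile normalization 1 member was called higher in D7 IR, and Gsta4, Gstm5 and Gsto1 turned to −0.19, −0.03 and −0.0842 there. Median-ratio scaling turned Gstp1 in the irradiation difference to 0.0098 and Nqo1 in D11 to −0.0044. With all 18 libraries in one fit 0 members were called lower by irradiation. The cause of these changes was not tested, apart from the 2-fold minimum, which removes smaller changes by its construction.

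Leaving out 1 library at a time gave 1 to 2 members higher in D7 IR and 1 to 2 lower by irradiation, and ranges of −0.0044 to 0.0712 for Gsta4 and −0.0305 to 0.0302 for Gstm5 in D7 IR. For Gstp1 in the irradiation difference the range was −0.0663 to 0.0054, for Nfe2l2 in D7 non-IR −0.0291 to 0.0096 and for Nqo1 in D11 −0.1142 to 0.0972. The other counts of calls stayed within 1.5 times.

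Replicate numbers showed no clear pairing of the libraries. Same-numbered vehicle and TGFB1 libraries deviated together with r between −0.086 and 0.213, and in no table was every pair over 0.1. For different numbers r lay between −0.165 and 0.204. With 3 libraries in a group these values cannot exclude pairing. With the replicate number as a block 7701, 8417, 7351, 5967 and 7451 genes were called in the 5 comparisons. Among GST genes it passed Gsta1 at D11 (adjusted p = 0.0243), Gstp1 by day (0.029) and Mgst2 in D7 non-IR (0.0325), and it changed no other GST call.

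In single cells the counts past 1.5-fold stayed within 1.5 times with at least 1000 UMIs per cell, with every deposited barcode and with whole entries, which gave 3 members lower at 15 h. The search for accessible regions at member start sites, in a narrower and a wider window, was not run, since no annotation of a build known to be theirs was used here.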
